A study of Homo sapiens with 12 samples.

Results

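The comparison set 2 human gastric cancer cell lines side by side, SNU601 and AGS, each measured after the same 4 treatments. The rule took the 4 SNU601 arrays and the 4 AGS arrays, paired by the treatment in their titles, which makes 8 of the 12 arrays of the series. The other 4 arrays came from MKN1, another gastric cancer line given the same treatments, and enter here through the shared estimate of the spread and as a point of reference. Each array was an Affymetrix GeneChip Human Gene 2.0 ST array hybridised with labelled cDNA made from the RNA of a culture. Per the labels, cells were grown in RPMI-1640 with fetal calf serum and treated with DMSO, the solvent, with Rhosin, a small molecule that inhibits the GTPase RhoA, or with JK136 or JK139, compounds that the labels give only by code name. Doses and exposure times are not given in the sources used here. Each line had 1 array per treatment. Nothing in the labels says whether the 4 arrays of a line came from separate cultures. The spread behind the errors of the line comparison is therefore what remains on the 12 arrays once line and treatment are fitted. It reflects how unevenly the lines differed from treatment to treatment. For the interaction it is the spread between compounds within the lines. P-values measure these spreads, not the spread between cultures.

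The 2 lines are tumour cells grown in culture, apart from the tissue, so the comparison describes these lines and not gastric tumours at large. Gastric epithelium is built by surface mucous cells, which secrete trefoil peptides and mucins, and by glands with chief and parietal cells, and its cells are joined by tight junctions that hold claudin-18. RhoA, the target of Rhosin, is a small GTPase that switches on formins and kinases and so drives the assembly of actin filaments. Genes that cells of different tumours commonly set at different levels include targets of p53, of the Wnt pathway, of the amino acid stress factor ATF4 and of the sterol-sensing SREBP factors.

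Levels are log2 signals after robust multi-array averaging (RMA), and a difference is SNU601 minus AGS on that scale, so 1 unit is 2-fold. Where 4 levels of a line or 4 differences are given in a row, they stand in the order DMSO, Rhosin, JK136, JK139. Array medians lay between 4.14 and 4.20. Over the 53617 transcript clusters, arrays of SNU601 correlated with each other at Pearson's r between 0.983 and 0.988, arrays of AGS at 0.978 to 0.987, and arrays of the 2 lines with each other at 0.952 to 0.960. A gene symbol was at hand for 16098 clusters, which gave 14884 genes, and 8930 of these had a mean over the 12 arrays of at least 4.61, the 40th percentile, and were tested. A level under 4.61 may be background, and a difference taken against such a level is the difference measured, not a ratio of transcript numbers.

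Both lines carried the transcripts of an epithelial cell. EPCAM, the epithelial adhesion molecule, lay at 10.31, 10.00, 10.24 and 10.20 in SNU601 and at 10.12, 10.00, 10.04 and 10.00 in AGS. The arrays of the 2 lines overlapped for EPCAM, and the difference of 0.15 ± 0.11 (SE) was not called (limma, adjusted p = 0.265). The keratin KRT18 had a mean of 10.50 in SNU601 and 9.63 in AGS, and KRT8 of 6.44 and 6.16, while KRT7 was under 4.61 in both. The foregut transcription factors GATA6 (8.05 in SNU601, 7.87 in AGS) and SOX2 (6.74 and 6.64) were measured in both lines and were not called. CDH1 and MUC1 were not analysed here. Among markers of other cells, 3 of the 8 fibroblast genes, 4 of the 6 endothelial genes and 4 of the 8 leukocyte genes had a symbol. The fibroblast genes DCN (2.13 in SNU601 and 1.90 in AGS) and LUM (3.21 and 2.90) were under 4.61, and THY1 (4.60 and 4.63) lay at that limit. Of the endothelial genes, PECAM1 (3.48 and 3.50), VWF (3.92 and 4.0) and KDR (3.30 and 3.19) were under it and ERG (4.90 and 5.0) was above it in both lines. CD14 of monocytes (3.46 and 3.33) and TYROBP (4.31 and 3.95) were under it as well. Lysozyme (LYZ) and the lysosomal glycoprotein CD68, which stand on the leukocyte list, were not low. LYZ, an enzyme that gastric epithelial cells can also make, had means of 11.84 and 10.83, and CD68 had means of 8.33 and 6.14, both higher in SNU601 (limma, adjusted p = 0.000979 and 5.2e-09). PTPRC was not analysed here. In these bulk samples, fewer cells of a type and less RNA per cell cannot be told apart.

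The 2 lines differed in a large part of the genes tested, mostly by little. At an adjusted p under 0.05, limma called 4710 of 8930 genes (52.7%), 2673 of them higher in SNU601 (29.9%) and 2037 lower (22.8%). With a difference of at least 2-fold there were 745 (8.34%), of which 328 were higher (3.67%) and 417 lower (4.67%). At least 4-fold differences numbered 76 higher and 94 lower. The median size of a difference was 0.27, with a median SE of 0.10, and the median difference over all genes was 0.05. The 4 arrays of the 2 lines did not overlap for 4228 genes (47.3%). Of the 745 genes called with at least 2-fold, 745 had the same sign in the 4 pairs and 740 had arrays that did not overlap. These genes were picked by their difference over the same arrays, so both counts largely follow from that choice. For 5398 genes (60.4%), limma's 95% confidence interval of the difference, not adjusted over genes, lay wholly within 1.5-fold to either side.

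The DMSO pair, without any compound, gave a like picture. Between its 2 arrays 805 genes differed by at least 2-fold (9.01%), 347 higher in SNU601 and 458 lower, and no test is possible on 1 array per line. The Rhosin pair had 937 such genes, the JK136 pair 789 and the JK139 pair 819. Of the 805 genes of the DMSO pair, 795 had the same sign in the other 3 pairs and 658 were also called with at least 2-fold over the 4 pairs, which include the DMSO pair. Across the tested genes, which are not independent replicates, the differences of the DMSO pair and the mean differences of the other 3 pairs had a Pearson's r of 0.942. These came from different arrays, but shared the 2 lines and the platform.

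**Figure D1:**
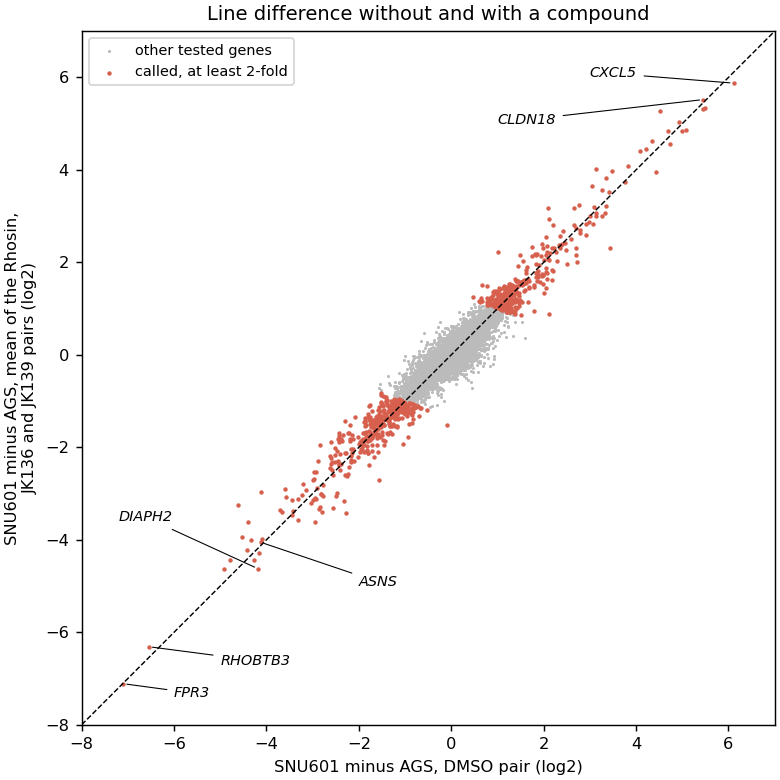
Each point is 1 of 8930 tested genes, with its SNU601 minus AGS difference (log2) in the DMSO pair on the horizontal axis and the mean of its differences in the Rhosin, JK136 and JK139 pairs on the vertical axis. Genes called with at least 2-fold are red, the dashed line marks equal values, and points from FPR3 (-7.10 in the DMSO pair) to CXCL5 (6.11) lie along it.

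CXCL5, a chemokine that attracts neutrophils, had the highest difference. Its levels were 10.71, 9.91, 10.67 and 10.38 in SNU601 against 4.60, 4.57, 4.66 and 4.10 in AGS. The lines were far apart on every array, and the AGS levels lay about the limit of 4.61. The difference was 5.94 ± 0.13 (limma, adjusted p = 2.38e-11). CLDN18, the gastric claudin, followed, at 9.50, 9.47, 9.59 and 9.52 in SNU601 and 4.05, 4.01, 3.98 and 4.03 in AGS. The 4 levels of each line lay close together, and the difference was 5.50 ± 0.09 (limma, adjusted p = 1.67e-12). MKN1 was also low for CLDN18, with a mean of 3.76.

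CLDN18 is transcribed from alternative starts, one used in lung and one in stomach, and the transcript cluster is a single value for the gene. The 250 bases before each start are shown because the gene separated the lines so cleanly, and beside them the same stretch of RHOBTB3, a gene far apart in the other direction. Sequences are from RefSeq (GRCh38.p14), 5′ to 3′ on the gene's strand, with CG dinucleotides in capitals.
CLDN18, first start, chr3:137998566-137998815, plus strand: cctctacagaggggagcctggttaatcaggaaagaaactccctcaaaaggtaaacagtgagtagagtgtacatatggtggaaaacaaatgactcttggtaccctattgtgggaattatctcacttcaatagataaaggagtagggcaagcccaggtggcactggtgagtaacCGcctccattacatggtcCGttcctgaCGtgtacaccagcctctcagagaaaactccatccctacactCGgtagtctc
CLDN18, second start, chr3:138009915-138010164, plus strand: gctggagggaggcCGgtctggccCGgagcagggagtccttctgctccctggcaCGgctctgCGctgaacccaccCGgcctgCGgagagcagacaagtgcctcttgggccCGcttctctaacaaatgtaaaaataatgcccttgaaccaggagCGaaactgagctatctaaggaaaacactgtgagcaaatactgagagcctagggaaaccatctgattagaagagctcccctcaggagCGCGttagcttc
RHOBTB3, chr5:95731086-95731335, plus strand: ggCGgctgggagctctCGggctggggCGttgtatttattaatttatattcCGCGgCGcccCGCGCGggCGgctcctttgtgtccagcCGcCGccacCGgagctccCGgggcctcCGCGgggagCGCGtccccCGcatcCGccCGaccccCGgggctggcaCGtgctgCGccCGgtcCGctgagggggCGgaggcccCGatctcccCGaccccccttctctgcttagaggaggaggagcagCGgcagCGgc
The first CLDN18 window held 4 CG dinucleotides and the second 10, against 31 for RHOBTB3. Genes on in SNU601 and off in AGS (mean at least 7 in one line and under 4.61 in the other) numbered 23, and 26 were on in AGS and off in SNU601. The median number of CG in the 250 bases was 14 over the 19 SNU601 genes with a promoter in the table and 30 over the 17 AGS genes, beside 23 over the 6940 tested genes with one. For a gene with several starts, the window with the most CG was counted. The ranges of the 2 sets overlapped (0 to 47 and 5 to 37), and the counts are a description.

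Mucous and secretory genes stood near the top of the list as well. MUCL3, a mucin-like membrane protein, was at 9.37, 9.76, 9.15 and 9.54 in SNU601 and at 3.87, 4.36, 3.90 and 4.19 in AGS, a difference of 5.38. AGR2, a disulfide isomerase of mucus-secreting cells, was at 7.93, 8.30, 7.73 and 7.98 in SNU601 and 3.20, 3.29, 3.49 and 3.53 in AGS. The AGR2 arrays of AGS were under 4.61 throughout, and the difference was 4.61 ± 0.15 (limma, adjusted p = 5.53e-10). MKN1 had means of 4.22 for MUCL3 and 2.69 for AGR2.

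Some genes high in SNU601 were high in MKN1 too. ACAA2, a mitochondrial thiolase of fatty acid oxidation, was at 8.33, 8.34, 8.29 and 8.32 in SNU601 and at 2.88, 2.40, 3.48 and 3.13 in AGS, with a mean of 8.29 in MKN1. ANXA5, an annexin that binds phosphatidylserine, was at 9.12, 9.01, 9.21 and 9.06 in SNU601 and at 4.04, 3.93, 4.54 and 4.25 in AGS, with a mean of 9.60 in MKN1. SNX9, a sorting nexin of endocytosis, differed by 5.08 and had an MKN1 mean of 7.88. The T-box factor TBX3 (4.56), the GATA-type repressor TRPS1 (4.39) and the surface glycoprotein CD109 (4.34) had MKN1 means of 7.04, 5.88 and 8.55. The remaining genes of the 15 highest were AADAC, an arylacetamide deacetylase (5.02), PIWIL1, a germline protein that binds piRNAs (4.88), the long non-coding RNA AFAP1-AS1 (4.80), SHISA6, an auxiliary subunit of AMPA receptors (4.08), and the serine protease KLK7 (4.03). All 15 had an adjusted p of at most 5.59e-09 (limma) and arrays that did not overlap, beside 47.3% of all genes tested without overlap.

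In the other direction, FPR3, a formyl peptide receptor known from monocytes, had the largest difference of all tested genes. It was at 2.99, 2.93, 3.23 and 2.92 in SNU601 and at 10.09, 10.11, 10.05 and 10.26 in AGS. The lines were 7.11 ± 0.10 apart (limma, adjusted p = 5.98e-13), and MKN1, at a mean of 2.88, was as low as SNU601. RHOBTB3, an atypical GTPase-related protein, was at 2.31, 3.15, 2.42 and 2.13 in SNU601 and at 8.86, 9.10, 8.76 and 8.79 in AGS. Here MKN1, at 8.97, stood with AGS. The difference of RHOBTB3 was -6.37 ± 0.15 (limma, adjusted p = 4.62e-11).

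HSPA4L, a chaperone of the HSP110 family, was at 2.44, 2.95, 3.07 and 2.49 in SNU601 and at 7.36, 7.07, 7.96 and 7.41 in AGS (difference -4.71). HEG1, a membrane receptor of cell junctions, was at 4.63, 4.45, 4.23 and 4.87 in SNU601 and at 8.90, 9.29, 8.83 and 8.77 in AGS (difference -4.40). The lines did not overlap for either gene, and the MKN1 means, 7.70 and 10.53, lay on the side of AGS. OLR1, a receptor for oxidised lipoprotein, differed by -4.27, VTN, the adhesive serum protein vitronectin, by -4.26, and HPGD, the enzyme that inactivates prostaglandins, by -4.08. GATM, which makes the precursor of creatine, differed by -4.08, the long non-coding RNA CRNDE by -3.81, the imprinted gene MEST by -3.59, the zinc finger gene ZNF841 by -3.52, the copine CPNE2 by -3.47 and the antisense transcript JAKMIP2-AS1 by -3.45. For GATM and HPGD 1 AGS array, that with Rhosin, lay apart from the other AGS arrays (6.91 and 6.97). DIAPH2 and ASNS complete the 15 lowest and are described with their pathways.

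**Figure D2:**
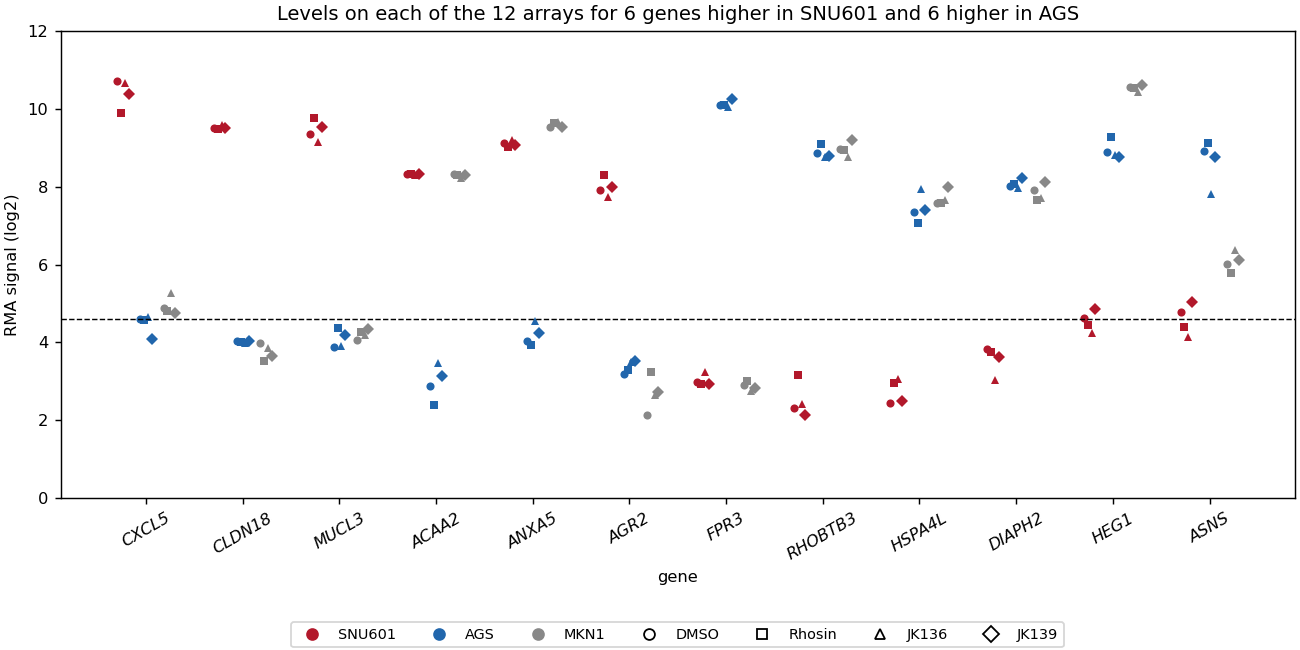
RMA signal (log2) on each of the 12 arrays for 6 genes higher in SNU601 (left) and 6 higher in AGS (right), with colours for the lines, shapes for the treatments and a dashed line at 4.61, the limit of the filter on means. The SNU601 and AGS arrays are separated for each gene, and MKN1 lies with AGS for CLDN18 and with SNU601 for ACAA2.

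Gastric epithelial genes were called higher in SNU601 more often than lower. Of 18 tested genes (34 listed), 10 were higher, 8 of them at least 2-fold, and 1 was lower, FOXA1, a pioneer factor of endoderm, at -0.79. The median of the list was 0.54, beside 0.05 over all genes tested, of which 29.9% were called higher and 22.8% lower. The filter left out genes with a mean over the 12 arrays under 4.61, among them genes present in 1 line, so such counts are over the members that passed and describe them. CLDN18, AGR2, ANXA10 and TFF2, counted as higher, had means under 4.61 in AGS and MKN1 and passed the filter only through SNU601. The count of higher members is therefore in part set by the filter. Untested members are given by their means, with no test, where these differed most. CAPN9, a digestive tract calpain of the gastric list, was untested and had means of 6.38 in SNU601 and 3.82 in AGS, with differences of 2.65, 2.54, 2.46 and 2.59. TFF2, a trefoil peptide of mucous neck cells, was at 5.83, 6.44, 7.02 and 6.36 in SNU601 and at 3.73, 3.65, 4.10 and 3.25 in AGS. TFF1, the trefoil peptide of surface mucous cells, was at 8.26, 8.86, 8.94 and 8.65 in SNU601 and at 7.24, 7.40, 5.86 and 6.50 in AGS. Both genes were apart on every array, by 2.73 ± 0.21 and 1.93 ± 0.27 (limma, adjusted p = 7.67e-07 and 7.31e-05), with the TFF1 levels of AGS spread over more than 1 unit. ANXA10, an annexin of gastric epithelium, differed by 3.79, the stomach calpain CAPN8 by 2.24 and the surface antigen PSCA by 1.25. GATA4, PDX1, the gastrin gene GAST and cathepsin E (CTSE) lay between -0.16 and -0.02 and were not called. The 18 mucin genes listed gave 2 symbols and no tested gene.

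Of 13 intestinal genes tested (34 listed), 5 were higher and 1 lower, with a median of 0.10, beside 29.9% higher and 22.8% lower over all genes tested. CEACAM6, a carcinoembryonic antigen-related cell adhesion molecule, differed by 2.20, with means of 11.33 and 9.13, and SPDEF, a transcription factor of goblet cells, by 2.04, with means of 7.19 and 5.15. The peptidase DPP4 was higher by 1.77, while CDX2, the intestinal master factor, was lower by 0.45 in SNU601. CDX1, VIL1 and ATOH1 were not called.

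Among keratins and adhesion genes, 8 of 15 tested (25 listed) were higher and 3 lower, with a median of 0.24. Over all genes tested the shares were 29.9% higher and 22.8% lower. KRT19, a keratin of simple epithelia, was the single member called with at least 2-fold, at 1.07, and the desmosomal cadherin DSG2 was higher by 0.95. Of 15 epithelial regulators tested (23 listed), 8 were higher and 4 lower, with a median of 0.25. EHF, an epithelial ETS factor, was at 8.67, 8.88, 8.79 and 8.57 in SNU601 and at 4.90, 5.30, 4.93 and 4.81 in AGS, a difference of 3.74 ± 0.08 (limma, adjusted p = 2.37e-11). MYO5B, a motor of apical trafficking, was higher by 1.28 and GRHL3, a grainyhead factor, by 1.16, whereas the related GRHL1 was lower by 0.57 on the log2 scale.

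Tight junction and polarity genes gave 9 higher and 6 lower of 23 tested (28 listed), with a median of 0.04, near the shares of all genes tested (29.9% higher and 22.8% lower). Apart from CLDN18, which stands on this list too, the claudin CLDN6, known from embryonic epithelia, differed by -2.58 and CLDN23 by 1.03. Mesenchymal genes gave 2 higher and 4 lower of 17 tested (32 listed), with a median of -0.13. The actin-binding proteins CALD1 (-1.82) and TAGLN (-1.75) and the membrane protein EMP3 (-1.70) were lower in SNU601, and the hyaluronan receptor CD44 was higher by 1.60. VIM and FN1, the vimentin and fibronectin genes, were not called (-0.23 and 0.08).

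**Figure D3:**
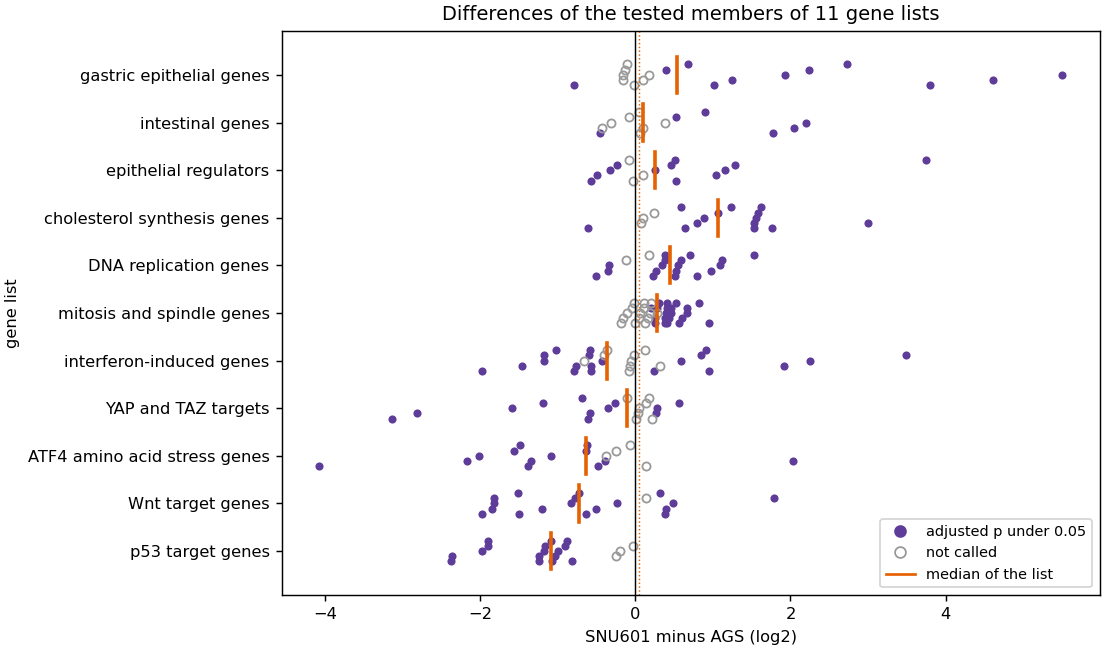
SNU601 minus AGS difference (log2) of each tested member of 11 gene lists, filled where limma's adjusted p was under 0.05, with a bar at the median of the list and a dotted line at the median of all genes tested, 0.05. The list medians run from -1.08 for p53 targets to 1.07 for cholesterol synthesis genes.

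RhoA itself was alike in the 2 lines. RHOA was at 10.07, 10.02, 9.99 and 9.96 in SNU601 and at 10.10, 10.23, 9.99 and 10.00 in AGS. The arrays overlapped, and limma's 95% interval of the difference ran from -0.23 to 0.08 (adjusted p = 0.426). RHOC, a close relative, had means of 5.27 and 5.42, with an interval from -0.40 to 0.11, and was not called either (limma, adjusted p = 0.323).

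RHOB, a short-lived relative, was at 6.64, 6.72, 6.86 and 6.68 in SNU601 and at 8.39, 8.76, 7.69 and 8.13 in AGS. The SNU601 levels were close together and below every AGS level, of which that with JK136 was the lowest. The difference was -1.52 ± 0.16 (limma, adjusted p = 1.03e-05), and that of RHOQ, a GTPase of vesicle traffic, was -1.59.

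Formins polymerise actin. DIAPH2, one of the formins, was at 3.83, 3.75, 3.02 and 3.62 in SNU601 and at 8.01, 8.07, 7.96 and 8.24 in AGS. SNU601 was under 4.61 on every array, MKN1 had a mean of 7.85, and the difference was -4.51 ± 0.13 (limma, adjusted p = 1.58e-10). DIAPH3 was lower by 0.76 on the log2 scale, whereas DIAPH1, the family member best known as a RhoA effector, was higher by 0.61 ± 0.07, with means of 8.87 and 8.26. The kinase PKN3 differed by -1.53. ROCK1 and ROCK2, the kinases best known as RhoA effectors, were not analysed here.

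TIAM1, an exchange factor for Rac, was at 4.60, 4.36, 3.96 and 4.21 in SNU601 and at 7.10, 7.08, 7.03 and 7.55 in AGS, a difference of -2.91 ± 0.14 (limma, adjusted p = 1.02e-08). SRGAP2 (-1.61) and SRGAP1 (-1.29), which act at the cell edge, were lower and ARHGAP44 was higher (1.20).

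Among target genes of factors that respond to actin and cell tension, those with the largest differences were lower in SNU601. The medians of their lists, -0.11 and 0.01, lay near that of all genes tested, 0.05. ANKRD1, a strong target of YAP and TAZ, was at 6.87, 5.06, 6.30 and 6.49 in SNU601 and at 9.16, 9.20, 9.62 and 9.27 in AGS. CCN2, the connective tissue growth factor gene and a target of the same factors, was at 6.03, 5.82, 5.79 and 5.95 in SNU601 and at 8.81, 9.16, 8.24 and 8.63 in AGS. Both lay lower in SNU601 on every array, with differences of -3.14 ± 0.22 and -2.81 ± 0.14 (limma, adjusted p = 3.26e-07 and 1.64e-08). Of 19 genes of the YAP and TAZ list tested (28 listed), 3 were higher and 9 lower, with a median of -0.11, and YAP1 itself was among the lower ones at -0.59. The other 7 were not called, and of all genes tested 29.9% were higher and 22.8% lower. Of 14 targets of SRF and its actin-regulated partners MRTF tested (24 listed), 1 was higher, vinculin (VCL, 0.23), and 5 were lower, led by CALD1 and TAGLN, with a median of 0.01. The remaining 8 were not called. VCL was no longer called without the DMSO or the JK136 array of either line or the SNU601 JK139 array (limma, adjusted p = 0.0744 to 0.167).

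Targets of p53 were lower in SNU601 with few exceptions. Of 19 tested (36 listed), 0 were called higher and 16 lower, 12 of them at least 2-fold, with a median of -1.08. In the 4 pairs the median was -1.01, -1.12, -1.37 and -1.01. Over all genes tested, 29.9% were called higher and 22.8% lower, and 4.67% were lower by at least 2-fold. GDF15, a secreted stress cytokine, was at 7.69, 8.08, 8.16 and 7.59 in SNU601 and at 10.07, 10.62, 10.28 and 10.00 in AGS. TP53INP1, which promotes p53-driven cell death, was at 4.63, 4.91, 4.72 and 4.64 in SNU601 and at 6.85, 6.44, 8.04 and 7.09 in AGS. The lines did not overlap for either, and their differences were -2.36 ± 0.15 and -2.38 ± 0.24 (limma, adjusted p = 1.29e-07 and 7.28e-06).

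RRM2B, the p53-induced subunit of ribonucleotide reductase, was at 5.45, 4.99, 5.19 and 5.08 in SNU601 and at 7.04, 7.0, 7.80 and 6.75 in AGS. BAX, which permeabilises mitochondria in apoptosis, was at 6.83, 6.80, 6.86 and 6.80 in SNU601 and at 7.96, 7.65, 8.60 and 7.73 in AGS. The SNU601 levels of BAX lay within 0.1 of each other, while AGS was highest with JK136. The same AGS array was also the highest of its line for TP53INP1, RRM2B and RPS27L. RPS27L, a ribosomal protein paralogue induced by p53, differed by -1.90, ALOX5, the 5-lipoxygenase, by -1.90, and PLK2, a polo-like kinase, by -1.25. The death genes BBC3 (-1.17) and PMAIP1 (-0.99), the sestrins SESN1 (-1.24) and SESN2 (-1.08), CCNG1 (-1.07), TP53I3 (-1.04), AEN (-0.90), TIGAR (-0.88) and FBXO22 (-0.82) were lower too. PLK3, SUSD6 and TRIAP1 (-0.25 to -0.03) were not called. In MKN1, RPS27L (4.29) and BAX (5.77) had lower means than in either line, whereas PMAIP1 (7.59) had a higher mean than in either. On the wider list of apoptosis regulators, which holds BAX, BBC3 and PMAIP1, 7 of 21 tested (45 listed) were higher and 8 lower, with a median of 0.12. All genes tested gave 29.9% higher and 22.8% lower.

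**Figure D4:**
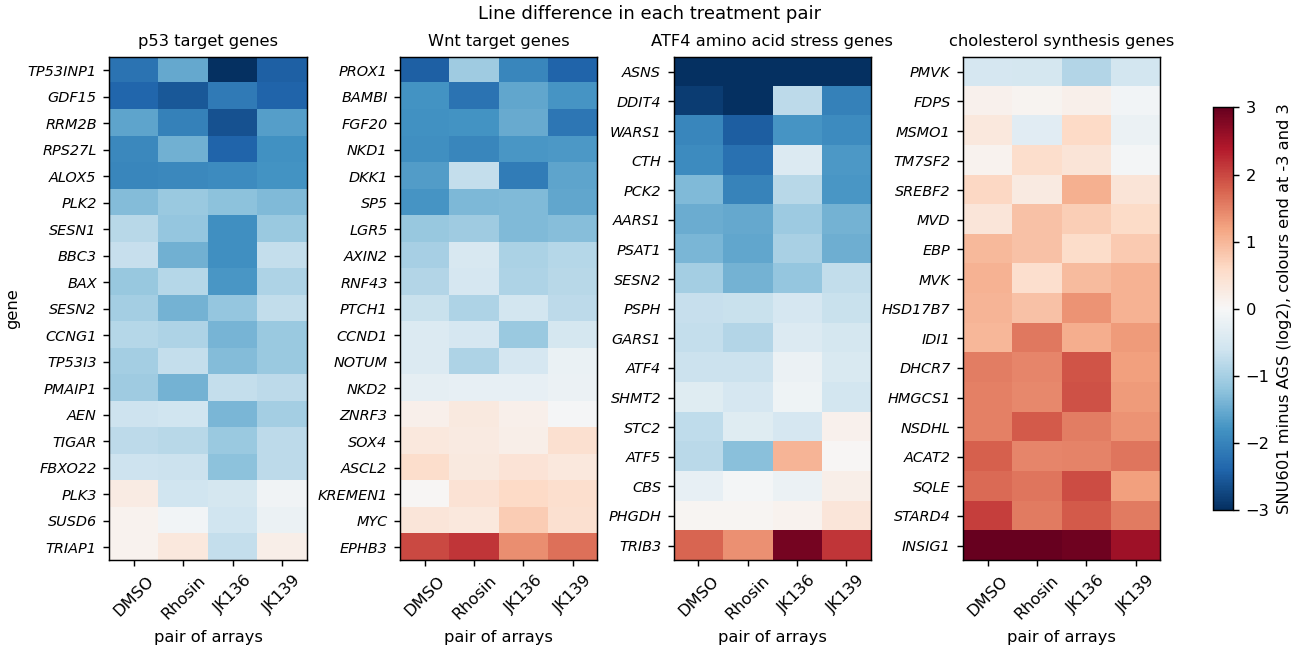
SNU601 minus AGS difference (log2) in each of the 4 treatment pairs (columns) for the tested members (rows, in the order of their fitted difference) of the p53, Wnt, ATF4 and cholesterol lists, blue where SNU601 was lower and red where it was higher. Colours end at -3 and 3, so ASNS, below -3 in each pair, has the deepest blue throughout.

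Wnt targets were called lower more often than higher. Of 19 tested (30 listed), 5 were higher and 13 lower, 7 of these at least 2-fold, with a median of -0.73 and pair medians of -0.67, -0.50, -0.92 and -0.78. The shares over all genes tested were 29.9% higher and 22.8% lower, with 4.67% lower by at least 2-fold. NKD1, a feedback inhibitor of the pathway, was at 6.40, 5.99, 6.13 and 6.37 in SNU601 and at 8.25, 7.94, 7.88 and 8.09 in AGS, a difference of -1.82 ± 0.08 (limma, adjusted p = 8.06e-09). BAMBI, a decoy receptor of the TGF-beta family, was at 8.20, 7.59, 8.02 and 8.18 in SNU601 and at 10.00, 9.82, 9.58 and 9.95 in AGS. The lines were separate on every array for both genes. PROX1, a homeobox factor, differed by -1.97, FGF20 by -1.82, the secreted inhibitor DKK1 by -1.51, SP5 by -1.50, the stem cell receptor LGR5 by -1.20, AXIN2, the classic feedback target, by -0.82 and RNF43, a ligase that removes Wnt receptors, by -0.78. EPHB3, an ephrin receptor of crypt cells, went the other way, at 7.23, 6.99, 6.96 and 7.39 in SNU601 and 5.25, 4.85, 5.56 and 5.73 in AGS (difference 1.79). MYC (0.48), SOX4 (0.31) and ASCL2 (0.39) were also higher. LGR5 had means of 8.86 in SNU601, 10.06 in AGS and 4.35 in MKN1. In the same order, AXIN2 had 8.61, 9.44 and 5.69 and RNF43 had 8.83, 9.60 and 4.41. For DKK1 the MKN1 mean, 7.79, lay above that of SNU601, 6.65, and below that of AGS, 8.16. DKK4, a secreted inhibitor related to DKK1, was untested, with means of 5.71 in SNU601 and 3.41 in AGS and differences of 2.38, 1.77, 2.33 and 2.71. PROX1, counted as lower, had means under 4.61 in SNU601 and MKN1 and passed the filter only through AGS.

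Amino acid stress genes, which ATF4 switches on when charged tRNA runs short, were mostly lower in SNU601. Of 17 tested (30 listed), 1 was higher and 12 lower, 8 of these at least 2-fold, with a median of -0.63. All genes tested gave 29.9% higher and 22.8% lower, with 4.67% lower by at least 2-fold. ASNS, asparagine synthetase, was at 4.79, 4.39, 4.14 and 5.05 in SNU601 and at 8.91, 9.14, 7.82 and 8.78 in AGS. AGS was lowest under JK136 and still far above SNU601, and the difference of -4.07 ± 0.23 was called (limma, adjusted p = 6.08e-08). MKN1 lay between the lines, at 6.07.

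WARS1, the tryptophanyl-tRNA synthetase, was at 5.87, 5.76, 5.62 and 5.69 in SNU601 and at 7.83, 8.22, 7.38 and 7.57 in AGS (difference -2.02). CTH, which makes cysteine, was at 5.26, 5.43, 5.40 and 5.15 in SNU601 and at 7.15, 7.66, 5.81 and 6.88 in AGS (difference -1.57). For both, AGS was lowest with JK136 and highest with Rhosin, and SNU601 hardly varied. PCK2 (-1.48), of mitochondrial gluconeogenesis, AARS1 (-1.38), a tRNA synthetase, PSAT1 (-1.35), of serine synthesis, and ATF4 (-0.48) were lower too. STC2 (-0.38), ATF5 (-0.24), CBS (-0.07) and PHGDH (0.14) were not called, and the 4 differences of ATF5, -0.80, -1.24, 1.03 and 0.03, changed sign. TRIB3, a pseudokinase that restrains ATF4, was at 7.16, 7.29, 7.05 and 7.37 in SNU601 and at 5.41, 5.92, 4.19 and 5.22 in AGS, a difference of 2.04 ± 0.24 (limma, adjusted p = 2.04e-05).

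ATF4 binds composite elements that hold TGATGNAAN. In the 250 bases before the start, on either strand, these letters occurred in 3 of 15 ATF4-list genes with a promoter in the table (AARS1, ASNS and GARS1), beside 2.07% of 6940 tested genes and 3.13% of all 35116 windows. Windows of ASNS and AARS1 are shown because these genes were among the lower ones, with the match in capitals. In AARS1 it lies on the opposite strand and so appears as its reverse complement. The letters do not show that a factor binds, and ASNS has a further start whose window holds no match.
ASNS, chr7:97872409-97872658, minus strand: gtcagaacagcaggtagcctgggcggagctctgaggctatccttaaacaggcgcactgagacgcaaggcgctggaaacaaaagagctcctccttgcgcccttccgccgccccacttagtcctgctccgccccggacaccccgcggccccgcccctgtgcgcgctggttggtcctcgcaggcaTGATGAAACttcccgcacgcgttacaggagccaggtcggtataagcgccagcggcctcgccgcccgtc
AARS1, chr16:70289507-70289756, minus strand: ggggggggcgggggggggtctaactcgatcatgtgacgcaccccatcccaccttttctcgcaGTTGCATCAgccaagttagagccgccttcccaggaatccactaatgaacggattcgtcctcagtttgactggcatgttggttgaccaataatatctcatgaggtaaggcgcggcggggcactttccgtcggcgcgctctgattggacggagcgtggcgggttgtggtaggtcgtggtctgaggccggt

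Cholesterol synthesis genes had the highest median among the lists with at least 5 tested genes. Of 17 tested (25 listed), 13 were higher, 9 at least 2-fold, and 1 was lower, with a median of 1.07 and pair medians of 1.01, 0.88, 1.09 and 1.04. Over all genes tested, 29.9% were called higher and 22.8% lower, and 3.67% were higher by at least 2-fold. INSIG1, the sterol sensor that holds SREBP in the endoplasmic reticulum, was at 8.49, 9.21, 8.81 and 8.62 in SNU601 and at 5.50, 5.65, 5.90 and 6.08 in AGS. SQLE, squalene epoxidase, was at 8.33, 8.35, 8.70 and 8.27 in SNU601 and at 6.64, 6.74, 6.74 and 7.04 in AGS. Both were separate on every array, by 3.0 ± 0.19 and 1.62 ± 0.11 (limma, adjusted p = 1.37e-07 and 1.9e-07).

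HMGCS1, which makes HMG-CoA, was at 7.19, 7.04, 7.92 and 7.03 in SNU601 and at 5.67, 5.61, 6.01 and 5.76 in AGS. NSDHL, a dehydrogenase of late sterol synthesis, was at 7.51, 7.43, 7.70 and 7.36 in SNU601 and at 5.99, 5.60, 6.17 and 6.01 in AGS. For both genes each line was highest with JK136, and the lines stayed apart, by 1.53 and 1.56. STARD4, a sterol carrier, was higher by 1.76, ACAT2, an acetyl-CoA thiolase, by 1.59, DHCR7, the last enzyme of the pathway, by 1.53, IDI1 by 1.24, HSD17B7 by 1.07 and SREBF2, the gene of SREBP-2, by 0.58. PMVK, phosphomevalonate kinase, was the lower member at -0.61, and FDPS, MSMO1 and TM7SF2 (0.08 to 0.24) were not called.

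Promoters of this pathway are known to pair sterol elements with sites of the factor NF-Y, whose core letters are CCAAT. On either strand, CCAAT occurred in the 250 bases before the start in 14 of 15 cholesterol genes with a promoter in the table, beside 41.4% of 6940 tested genes and 32.0% of all windows. A spelled-out form of the sterol element, TCACNCCAC, occurred in 1 of the 15, SREBF2, beside 1.14% of tested genes and 0.883% of all windows, and other forms of the element were not searched. CCAAT also occurred in 10 of 15 ATF4-list genes with a promoter window, so it was not particular to the cholesterol list. Windows of 4 genes of the cholesterol list are shown with CCAAT, or ATTGG where it lies on the opposite strand, in capitals. HMGCS1 has a further start whose window holds no CCAAT on either strand.
INSIG1, chr7:155297628-155297877, plus strand: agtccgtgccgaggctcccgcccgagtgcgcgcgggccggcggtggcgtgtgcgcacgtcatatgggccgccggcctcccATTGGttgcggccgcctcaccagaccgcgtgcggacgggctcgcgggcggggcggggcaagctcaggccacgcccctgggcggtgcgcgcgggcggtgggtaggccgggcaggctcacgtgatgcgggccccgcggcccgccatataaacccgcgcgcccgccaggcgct
HMGCS1, chr5:43313413-43313662, minus strand: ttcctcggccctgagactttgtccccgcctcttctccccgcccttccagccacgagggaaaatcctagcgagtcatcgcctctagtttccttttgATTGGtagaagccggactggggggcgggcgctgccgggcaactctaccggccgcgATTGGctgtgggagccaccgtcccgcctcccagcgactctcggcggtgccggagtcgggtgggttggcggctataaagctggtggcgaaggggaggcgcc
STARD4, chr5:111512536-111512785, minus strand: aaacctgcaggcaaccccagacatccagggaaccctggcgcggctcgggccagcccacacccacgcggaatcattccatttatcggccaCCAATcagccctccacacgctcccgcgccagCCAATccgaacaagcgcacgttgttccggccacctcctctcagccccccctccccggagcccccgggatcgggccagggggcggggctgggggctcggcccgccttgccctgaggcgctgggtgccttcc
NSDHL, chrX:152830813-152831062, plus strand: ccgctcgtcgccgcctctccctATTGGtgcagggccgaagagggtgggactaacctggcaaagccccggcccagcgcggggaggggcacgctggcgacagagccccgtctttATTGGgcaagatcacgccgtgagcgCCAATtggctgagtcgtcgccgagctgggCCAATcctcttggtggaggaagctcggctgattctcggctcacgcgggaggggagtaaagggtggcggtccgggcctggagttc
Fatty acid synthesis genes, also under SREBP control in part, gave 7 higher and 3 lower of 18 tested (26 listed), with a median of 0.20. The shares over all genes tested were 29.9% higher and 22.8% lower. ACSL5, an acyl-CoA synthetase of gut epithelium, was higher by 2.42, FASN by 0.84 and SREBF1 by 0.92, and the desaturase SCD5 differed by -1.49.

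Replication and mitosis genes were called higher in SNU601 more often than lower. Of 20 DNA replication genes tested (45 listed), 15 were higher, 3 at least 2-fold, and 3 lower, with a median of 0.44. For this list and those below, the shares over all genes tested were 29.9% higher and 22.8% lower. MCM3, a subunit of the replicative helicase, was at 8.85, 8.70, 8.73 and 8.83 in SNU601 and at 7.76, 7.31, 7.74 and 7.82 in AGS (difference 1.12). GINS2, which completes that helicase, was higher by 1.53 and MCM2 by 1.09. TYMS (-0.51), PCNA (-0.35) and GINS1 (-0.34) were the lower members, and PCNA lost its call when any of 5 single arrays was left out, with a difference of -0.19 without the AGS JK136 array (limma, adjusted p = 0.18). Mitosis and spindle genes had 21 of 36 tested (43 listed) higher, 0 lower and 0 past 2-fold, with a median of 0.28, led by the checkpoint kinase TTK (0.95) and CEP55 (0.83). The AGS array with Rhosin had the lowest level of its line for MCM3, GINS2 and TTK. Among G1 regulators, 5 of 16 tested (26 listed) were higher and 4 lower, with a median of 0.07, cyclin E2 (CCNE2) at -0.96 among them. Of 8 mismatch repair genes tested (10 listed), 2 were higher and 2 lower, with MLH3 lowest at -0.88 and a median of 0.05.

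Of 29 interferon-induced genes tested (45 listed), 8 were higher and 12 lower, with a median of -0.36, beside 29.9% higher and 22.8% lower over all genes. HERC6, an interferon-induced ligase, was at 6.85, 6.85, 7.34 and 7.11 in SNU601 and at 3.58, 3.61, 3.83 and 3.17 in AGS (difference 3.49). IFIT1, which binds viral RNA, was at 5.30, 4.72, 5.49 and 5.35 in SNU601 and at 6.80, 5.49, 7.93 and 6.48 in AGS, so that the SNU601 JK136 level and the AGS Rhosin level met and the arrays overlapped. Its difference was -1.46 ± 0.32 (limma, adjusted p = 0.00238).

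IFITM2 (2.25) and BST2 (1.92), which hold back enveloped viruses, were higher, and EPSTI1 (-1.98), the RNA sensors IFIH1 and RIGI (-1.18 each) and MX2 (-1.02) were lower. The list median in the 4 pairs was -0.51, -0.05, -0.50 and 0.02. AGS had its lowest IFIT1, BST2 and EPSTI1 levels with Rhosin. Antigen presentation genes had 4 of 7 tested (36 listed) higher and 1 lower, the trimming peptidase ERAP2 (-1.09), with a median of 0.34, and B2M was not called (-0.04). For this list and the next, the shares over all genes tested were 29.9% higher and 22.8% lower. Among chemokines, interleukins and their receptors, 8 of 22 tested (56 listed) were higher and 3 lower, with a median of 0.09. IL1RN, the interleukin-1 receptor antagonist, was untested, with means of 5.90 in SNU601 and 3.90 in AGS, and so was CXCL8, with 5.43 and 3.66. Next to CXCL5, the chemokine receptor CXCR4 was higher by 1.84, and the receptor LIFR (-1.71) and the cytokine IL18 (-1.63) were lower.

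Receptor tyrosine kinases gave 8 higher and 7 lower of 22 tested (54 listed), with a median of 0.03, beside 29.9% higher and 22.8% lower over all genes. MERTK, a receptor of the TAM family, was untested and had means of 3.14 in SNU601 and 6.81 in AGS. MET, the receptor of hepatocyte growth factor, was at 9.75, 9.85, 9.89 and 9.71 in SNU601 and at 8.19, 8.65, 7.86 and 8.16 in AGS, a difference of 1.58 ± 0.13 (limma, adjusted p = 1.54e-06). PTK7 (-1.46), EPHA4 (-1.38), ROR1 (-1.15) and EGFR (-0.68) were lower in SNU601. Of 17 feedback and output genes of the MAPK pathway (27 listed), 3 were higher and 3 lower, with a median of 0.08. Immediate-early genes gave 5 higher and 6 lower of 21 tested (28 listed), with a median of -0.10 and pair medians of -0.04, -0.63, 0.32 and 0.00. ATF3 (-1.41) and KLF6 (-1.14) were lower, and EGR1 was not called. Its 4 differences were -0.21, -1.88, 0.59 and -0.94, and its AGS levels ran from 7.06 with JK136 to 9.72 with Rhosin, while SNU601 stayed between 7.64 and 7.84.

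Of 17 homeobox genes of the HOX clusters tested (39 listed), 7 were higher and 4 lower, with a median of 0.05. All genes tested gave 29.9% higher and 22.8% lower. Singled out after their values were seen, HOXC10 (2.41), HOXC11 (1.35), HOXC13 (1.11), HOXC9 (0.73), HOXC8 (0.69) and HOXC4 (0.66) were higher, and HOXB9 (-1.60), HOXB6 (-1.49), HOXB5 (-1.07) and HOXB3 (-0.36) lower, whereas HOXB7 was higher (0.35). HOXC12 (-0.08), HOXB4 (-0.37) and HOXD10, HOXD4, HOXD8 and HOXD11 (-0.06 to 0.24) were not called. HOXC10 was at 6.54, 6.77, 6.55 and 6.72 in SNU601 and at 3.84, 4.51, 4.22 and 4.37 in AGS.

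Matrix proteases gave 6 higher and 3 lower of 19 tested (42 listed), with a median of -0.00. The shares over all genes tested were 29.9% higher and 22.8% lower. The kallikreins KLK7, KLK10 (3.13) and KLK11 (1.31) were higher, while KLK6 (-1.16) and the membrane protease MMP14 (-1.10) were lower. KLK10 was at 8.94, 9.27, 9.22 and 9.27 in SNU601 and at 6.18, 5.91, 5.80 and 6.29 in AGS, without overlap.

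The counts of the next lists stand beside 29.9% higher and 22.8% lower over all genes tested. NRF2 targets and xenobiotic enzymes had 10 of 15 tested (42 listed) higher and 2 lower, with a median of 0.29, GPX2, a glutathione peroxidase of gut epithelium, at 1.0 and GSTA4 at -1.13. Hypoxia and glycolysis genes had 8 of 17 tested (37 listed) higher and 2 lower, with a median of 0.24 and NDRG1 at 1.55. Heat shock chaperones had 8 of 16 tested (28 listed) higher and 3 lower, with a median of 0.27. HSF1, the heat shock factor, was higher by 1.13 and HSPB1 by 1.38, beside HSPA4L at the low end, and the near-identical copies HSPA1A (0.89) and HSPA1B (0.88) may share signal. Of 5 metallothioneins tested (10 listed), MT1X was higher (0.25) and MT2A (-0.74) and MT1F (-0.73) lower, with a median of -0.21. MT1X and MT1F each lost their call when single arrays were left out (limma, adjusted p = 0.0621 to 0.117 for MT1X and 0.0589 to 0.0711 for MT1F). Of 6 cancer-testis antigens tested (58 listed), PIWIL1 was higher and 5 were not called, with a median of 0.09. PIWIL1 had means under 4.61 in AGS and MKN1 and passed the filter only through SNU601. Untested members of that list lay in both directions, PASD1 with means of 2.75 in SNU601 and 6.84 in AGS and STK31 with 5.21 and 3.31. Of 6 housekeeping genes tested (16 listed), HPRT1 (0.76) and PPIA (0.47) were higher, with a median of 0.13, and GAPDH was not called (0.20). The lists of integrins (24 genes) and of collagens and laminins (40 genes) had no symbol here.

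Whether the line difference changed with the compounds was tested as an interaction, in which the 3 compounds serve as replicates of each other against 1 DMSO array per line. The test addresses a shift shared by the 3 compounds. A change with 1 compound, or opposite changes between compounds, add to its error. A lack of calls therefore does not show that no single compound changed the line difference. At an adjusted p under 0.05, the count of called genes was 0 of 8930 (0%) by limma. There were 212 genes with a p under 0.05 before adjustment, and 0.99976 was the lowest adjusted value. Genes named by the rule for this comparison are therefore values that did not pass. MEST differed by -4.61 in the DMSO pair and by -3.48, -2.84 and -3.45 in the others, with SNU601 under 4.61 throughout. TFF1 differed by 1.02, 1.46, 3.09 and 2.15 and the zinc finger gene ZNF844 by 2.10, 2.85, 3.58 and 3.09. FJX1, a secreted kinase-like protein, went from -0.59 to 0.54, 0.47 and 0.43. In the opposite direction, the amino acid sensing GTPase RRAGB differed by 3.43, 2.37, 2.02 and 2.53, the actin-binding DBN1 by 2.13, 0.79, 1.28 and 0.59, and the neuropeptide gene GAL by 0.83, -0.41, -0.03 and -0.31. SLFNL1 went from 0.92 to 0.18, -0.20 and -0.24 and HCG27 from 0.43 to -0.74, -0.54 and -0.45.

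Among called genes that the naming rule admits, the 5 whose difference varied most over the pairs had the same sign in the 4 pairs. JAKMIP2-AS1 differed by -3.45, -2.23, -4.52 and -3.61 and the Kruppel-like factor KLF7 by -1.56, -3.73, -2.26 and -2.10. DDIT4, a stress-induced inhibitor of mTORC1, was at 5.87, 6.61, 6.37 and 6.10 in SNU601 and at 8.70, 9.62, 7.15 and 8.12 in AGS. The AGS levels of DDIT4 spanned over 2 units, so its difference was -0.78 with JK136 and -3.01 with Rhosin. The cystatin CST4 differed by -0.91, -0.11, -2.35 and -2.02 and the pregnancy glycoprotein PSG6 by -0.10, -1.16, -2.46 and -0.95. The SNU601 and AGS arrays overlapped for PSG6, whose difference of -1.17 ± 0.35 was called at an adjusted p of 0.0146 (limma), and it shares near-identical sequence with other members of its family. Without the SNU601 Rhosin or the SNU601 JK136 array PSG6 was not called (limma, adjusted p = 0.0529 and 0.0527).

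The differences were not spread evenly over the chromosomes. On chromosome 18, 63.1% of 122 tested genes were called higher in SNU601 and 14.8% lower, with a median of 0.48. On chromosome 14, 6.38% of 282 genes were higher and 58.9% lower, with a median of -0.38. Chromosome 4 also had more lower than higher calls (48.2% and 19.2% of 307 genes), and so did chromosome 20 (37.7% and 10.0% of 260), whereas chromosomes 12 (median 0.22), 6 (0.21) and 3 (0.20) leaned the other way. The medians of single pairs ran from 0.42 to 0.47 on chromosome 18 and from -0.40 to -0.32 on chromosome 14. Genes are not independent samples, and these shares are a description beside the 29.9% and 22.8% of all genes.

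**Figure D5:**
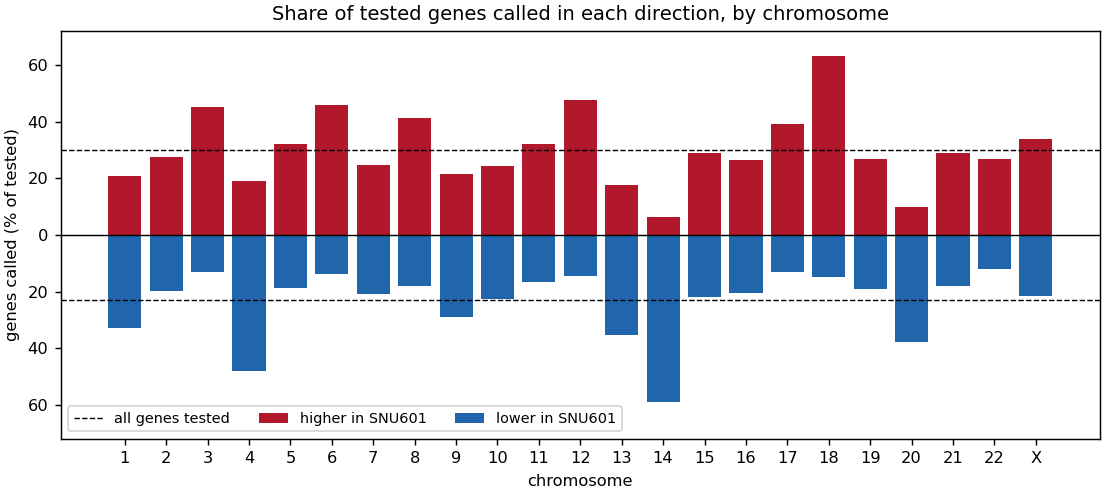
Percent of tested genes called higher in SNU601 (red, upward) and lower (blue, downward) at an adjusted p under 0.05 on each chromosome, with dashed lines at the shares over all genes tested, 29.9% and 22.8%. Chromosome 18 has the highest red bar (63.1%) and chromosome 14 the lowest blue bar (58.9% lower).

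Shorter stretches stood out within chromosomes. In windows of 40 neighbouring tested genes, in RefSeq order, the highest median was 0.68, from ANKRD29 to MYO5B on chromosome 18, with 32 genes higher and 2 lower. From SELENOT to MFN1 on chromosome 3 the median was 0.64, with 31 higher and 2 lower. The lowest medians were -0.58 from MIR127 to CRIP2 on chromosome 14, with 1 higher and 22 lower, and -0.56 from KIF27 to HABP4 on chromosome 9, with 0 higher and 27 lower. Runs of at least 4 neighbouring tested genes called at least 2-fold in 1 direction numbered 3. HABP4, CDC14B, PRXL2C and ZNF510 on chromosome 9 were lower, between -1.87 and -1.03. The zinc finger genes ZNF271P and ZNF24, the chromatin remodelling subunit INO80C and GALNT1, which starts O-glycans, were higher on chromosome 18, between 1.11 and 2.06. On chromosome 19, ZNF90, MIR1270, ZNF626 and ZNF85 were higher, between 1.11 and 1.78, and zinc finger genes of such a cluster are similar in sequence.

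MKN1 did not side with either line as a whole. Of the 328 genes called with at least 2-fold higher in SNU601, the MKN1 mean was nearer to SNU601 for 166 and nearer to AGS for 162, and of the 417 lower ones it was nearer to SNU601 for 218 and nearer to AGS for 199. Of the 23 genes on in SNU601 and off in AGS, 8 were at or above 7 in MKN1 and 7 were under 4.61. For the 26 genes on in AGS and off in SNU601, the counts were 9 and 4. Arrays of SNU601 correlated with those of MKN1 at r between 0.930 and 0.933 over all clusters, and arrays of AGS at 0.927 to 0.933, below the values between SNU601 and AGS.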

How the data were processed

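Transcript levels of 12 arrays were analysed, of which 8 (SNU601 and AGS, 4 treatments each) form the comparison. The authors deposited log2 signals in 1 table, made by RMA with Affymetrix Expression Console per the submitters' processing notes (versions not given in the sources used here). RMA corrects background, gives the arrays 1 distribution and summarises the probes of a transcript cluster. This removes differences in total signal between lines. The number of arrays limits the precision.

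Symbols came from GEO's platform annotation, updated through RefSeq. Where a gene had several clusters, the one of highest mean was kept, and genes with a mean under the 40th percentile (4.61) were left out. The 37519 clusters without a symbol were not used. Chromosomes, gene order and sequences came from RefSeq tables (GRCh38.p14), and the build of the array's design is not given in the sources used here.

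Limma 3.58.1 in R 4.3.3 fitted line and treatment to the 12 arrays (6 residual degrees of freedom), with Benjamini-Hochberg adjustment over 8930 genes. Arrays were paired by treatment, as the labels give it, through the treatment term. The interaction took line, any compound and their product. On simulated data 80.0%, 98.5% and 100% of line differences of 0.5, 1 and 2 (log2) were called, and 3.97% of calls were false. For the interaction 76.0%, 97.5% and 100% of effects of 1, 2 and 4 were called, and 5.36% of calls were false. The simulated data held no treatment effects, and their noise had the residual spread of the line and treatment fit. In the measured data, differences between compounds add to the error of the interaction. The shares called may therefore be lower there, and the simulation does not show how much lower.

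The comparison and the 42 gene lists were chosen with earlier results of these data known. Named genes are the 15 highest and 15 lowest called differences with 1 sign in 4 pairs, 6 called members of each list with the largest differences, RHOA, RHOB and RHOC, genes on in 1 line and off in the other, the 5 that varied most over pairs, those of the interaction and those of neighbouring runs, leaving out LOC, LINC, MIR, SNOR and orf symbols and genes of chromosome Y. Further list members are named to complete a list. Counts and medians of 4 of the lists are not reported here. Alternatives covered normalization, filter, arrays in the fit, treatment term, prior, weights, clusters and each array or treatment left out.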

Additional observations from a re-analysis of the deposited data

Results flagged for a closer look

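In each line, the 4 arrays of the 30 genes with the highest and lowest differences were checked for 1 array far from the other 3, which makes 60 groups. In 3 of them the gap exceeded Dixon's 95% critical value for 4 values, and chance alone gives about 1 in 20 groups. Since the 4 arrays of a line had different treatments, a stray array and an effect of its treatment cannot be told apart.

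AFAP1-AS1 was at 3.42 in AGS with JK136, below 4.06, 4.12 and 4.13 with DMSO, Rhosin and JK139, all under 4.61. GATM was at 6.91 in AGS with Rhosin, below 8.19, 7.99 and 8.06 on the other AGS arrays. HPGD was at 6.97 in AGS with Rhosin, below 7.63, 7.67 and 7.66. For each of the 3 genes that array stayed on its line's side of the SNU601 arrays.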

How the results depend on the processing

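The count of called genes was 4710 and ran from 3651 at an adjusted p under 0.01 to 4993 with every cluster tested on its own. It was 4002 to 4342 when each treatment was left out of all lines, and 4186 to 4513 when each array of SNU601 or AGS was left out. Called genes with at least 2-fold numbered 745 and ran from 516 with the 60th percentile filter, which tests fewer genes, to 918 without a filter. Leaving out a treatment gave 724 to 787 and leaving out an array 726 to 785. With no replicate block, that is without the treatment term that pairs the arrays, 4699 genes were called, and the 745 with at least 2-fold were the same genes. Of 269 named genes compared under 22 settings, 20 lost a call under at least 1 setting and 0 changed sign, and of 172 called with at least 2-fold, 1 was lost, PSG6. The interaction called 1 gene without a filter, MIR4433A (2.42 ± 0.28, limma adjusted p = 0.0453), whose mean over the 12 arrays, 2.32, lies under the filter, and 0 in its other 7 alternatives. The DMSO pair held 177 genes at 4-fold, against 805 at 2-fold. For genes under 4.61 in 1 line, signal near background limits how large a difference can be measured.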

Other observations

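Some genes of prostaglandin metabolism, singled out after their values were seen, differed between SNU601 and AGS in both directions. PTGS2, the inducible cyclooxygenase, was at 3.24, 3.36, 3.37 and 3.27 in SNU601 (DMSO, Rhosin, JK136, JK139) and at 6.23, 6.02, 6.18 and 5.85 in AGS, a difference of -2.76. PTGS1, the constitutive cyclooxygenase, was at 6.81, 6.85, 6.83 and 6.86 in SNU601 and at 4.31, 4.83, 4.57 and 5.25 in AGS, a difference of 2.10. The arrays did not overlap for either gene, beside 47.3% of all genes tested without overlap, and both were picked by their values. HPGD, which breaks prostaglandins down, differed by -4.08. Single genes chosen in the same way, which stand for no group, were lower in SNU601 for the endotoxin receptor TLR4 (-2.97), the leukocyte ligand ICAM1 (-2.07), thrombospondin THBS1 (-3.24), nidogen NID1 (-3.07) and the phospholipid transfer protein PLTP (-2.99). The glycosyltransferases GALNT5 (2.73) and GALNT1 (2.06), which start O-glycans, and ERN2, a stress sensor of mucous cells (2.29), were higher. The zinc finger genes ZNF551 (-3.17), ZNF134 (-2.96) and ZNF850 (-2.85) of chromosome 19 were lower.

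Some microRNA genes, also chosen after their values were seen, were far lower in SNU601. The signal is that of the transcript cluster at the hairpin gene and does not measure the mature microRNA. MIR373 was at 4.10, 4.12, 3.95 and 4.12 in SNU601 and at 8.88, 7.91, 8.94 and 8.61 in AGS (difference -4.52), and MIR4500 at 2.60, 2.28, 3.03 and 2.60 against 6.71, 6.26, 6.48 and 7.09 (difference -4.01). MIR27B and MIR23B, neighbours on chromosome 9, differed by -2.89 and -2.12, and AOPEP on the same chromosome by -2.07. The arrays of the 2 lines did not overlap for any of these 5 genes, beside 47.3% of all genes tested without overlap. Since the genes were picked by their values, this follows largely from the choice. Mature sequences from RefSeq (GRCh38.p14) follow, 5′ to 3′, with the seed, bases 2 to 8, in capitals. They show which target sites the products could pair with, and no seed is shared among these 4.
hsa-miR-373-3p: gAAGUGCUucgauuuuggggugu
hsa-miR-4500: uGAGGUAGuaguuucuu
hsa-miR-27b-3p: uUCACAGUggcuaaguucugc
hsa-miR-23b-3p: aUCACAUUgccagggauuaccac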
